A study of Mus musculus with 22 samples.

Results

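The genes described here encode 9 factors of nonsense-mediated mRNA decay (NMD): Upf1, Upf2, Upf3a, Upf3b, Smg1, Smg5, Smg6, Smg8 and Smg9. They were chosen by name as components of the pathway, with earlier results of these data known. All 9 were found among the 10516 genes of the deposited tables. The experiment was ribosome profiling of NIH3T3 cells, an established line of mouse embryonic fibroblasts, after lentiviral transduction of shRNAs and puromycin selection. In the knockdown group, Denr was targeted by Denr shRNA1 or Denr shRNA2, each in 3 lysates, and the control group comprised 3 lysates with scramble shRNA and 2 with Gfp shRNA. All 11 lysates were prepared from confluent dishes, 1 per replicate, after 2 min in 100 μg/ml cycloheximide, a drug that stalls elongating ribosomes. Every lysate gave an RPF-seq library of ribosome-protected fragments (footprints) and an RNA-seq library. DENR is a factor that helps ribosomes to resume initiation after they have translated an upstream open reading frame (uORF), and the comparison asked which transcripts change when it is depleted. Replicates are dishes of a single cell line, so that the p-values describe the spread between dishes. In the comparison of knockdown with control the shRNAs of each group were pooled, and this spread then includes differences between them.

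NMD degrades mRNAs on which a ribosome terminates in a position that the cell reads as premature, for example far upstream of an exon junction. Because a uORF places a stop codon in front of the main coding sequence (CDS), uORF-bearing mRNAs can be substrates of the pathway. The RNA helicase UPF1 is its central component, and UPF2 connects UPF1 with UPF3A or UPF3B, which bind the exon junction complex that splicing leaves on an mRNA. SMG1 is the kinase that phosphorylates UPF1, and SMG8 and SMG9 are the partners that restrain this kinase. Phosphorylated UPF1 then recruits SMG6, an endonuclease that cuts the mRNA, and SMG5, an adaptor that acts towards deadenylation, decapping and the dephosphorylation of UPF1. Transcripts of several NMD factors are themselves known to be NMD substrates, which places the pathway under feedback.

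The 5′ UTRs of the 9 mRNAs were examined first, since uORFs are the sequence feature through which DENR acts (GENCODE vM21 transcripts with the longest CDS, GRCm38). A uORF was counted as an AUG in the 5′ UTR followed by an in-frame stop codon, with a minimum of 9 nt. Of the 9 members, 4 carried such a uORF, 1 each (Smg5, Smg9, Smg1 and Upf2), against 49.8% of the 10205 genes of the table with an annotated 5′ UTR. Upf1, Upf3a, Upf3b, Smg6 and Smg8 had no AUG uORF. The 4 upstream start codons are printed here with up to 12 nt before and 6 nt after the AUG, which is in capitals, because the bases at positions -3 and +4 around an AUG influence how often it is used.
Smg5 uORF: cgcctcacagcgATGgcggcc
Smg9 uORF: gcggcgcATGcgccga
Upf2 uORF: aacccggggctaATGttgaca
Smg1 uORF: cggcgcttggccATGtcgtgt
These windows lie in exon 1 of Smg5 at chr3:88336291-88336311 (plus strand), of Smg9 at chr7:24399619-24399634 (plus strand), of Upf2 at chr2:5951522-5951542 (plus strand) and of Smg1 at chr7:118243302-118243322 (minus strand). The Smg5 window was the only 1 of the 4 with both a purine at position -3 and G at position +4, a combination present for at least 1 uORF in 18.8% of genes with a 5′ UTR. The Smg5 uORF covered 93 nt of the 164-nt 5′ UTR, encoded 30 codons before its stop and ended 28 nt in front of the CDS. In Smg9 the uORF opened at nucleotide 8 of the annotated transcript, covered 108 nt and ended 164 nt before the CDS.

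The uORFs of Upf2 (39 nt) and Smg1 (21 nt) ended in the same unusual arrangement, in which the last base of the stop codon was the first base of the CDS start codon. The junctions are printed with the shared stretch, TAATG, in capitals.
Upf2 junction: ctgggtcacaTAATGccagct
Smg1 junction: tcggggaaggTAATGagccgc
Only 42 genes of the table (0.412%) had a uORF that ran 1 nt into the CDS. These are features of the reference sequence, and which uORFs were translated was not analysed here, since the files hold sums over the whole 5′ UTR. The steps of the deposited RPKM values give the length of the region that was counted, which equalled the 5′ UTR described here in 7 of 9 members. For Smg1 the counted 5′ UTR had 424 nt and the transcript mapped here 347 nt, and for Upf1 the lengths were 280 and 285 nt, so that the uORF scan of these 2 mRNAs and their footprints refer to different annotated regions.

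**Figure D1:**
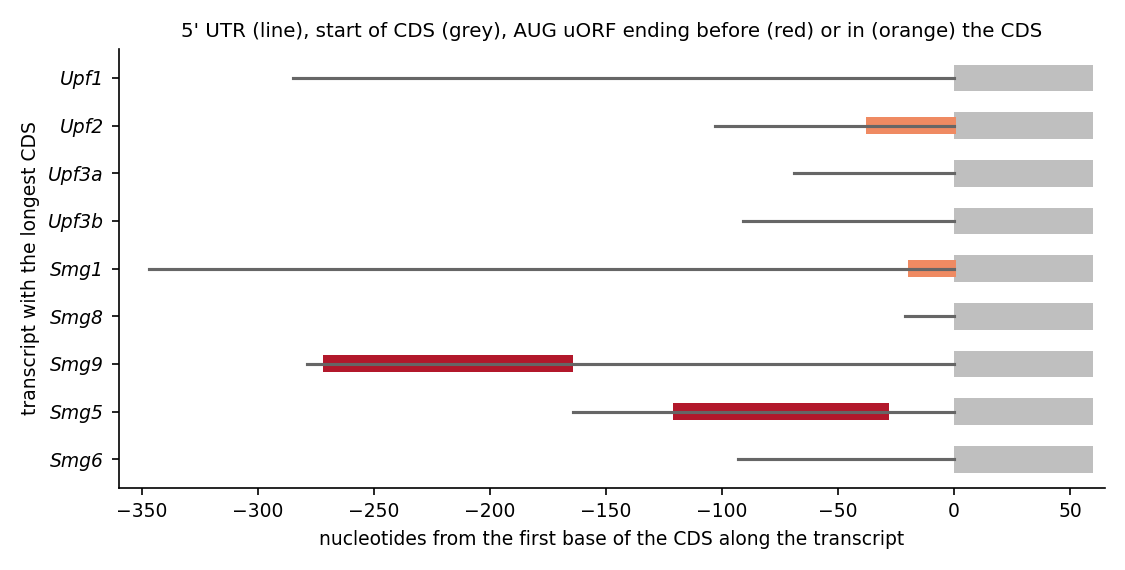
Map of the 5′ UTRs of the 9 mRNAs, with the distance from the first base of the CDS in nucleotides on the x axis and 1 transcript per row, where lines are 5′ UTRs, grey boxes the first bases of the CDS, red boxes uORFs that end before the CDS (Smg9 and Smg5) and orange boxes uORFs that end 1 nt inside it (Upf2 and Smg1). The 5′ UTRs range from 21 nt in Smg8 to 347 nt in Smg1.

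Library facts bear on these genes in the following way. Depth, recovered from the steps of the RPKM values and summed over 5′ UTR and CDS, was 10927303 to 21649878 footprints per RPF-seq library and 8514080 to 20109700 reads per RNA-seq library. The 8 fibroblast markers (Col1a1, Col1a2, Col3a1, Fn1, Vim, Thy1, Pdgfra and Pdgfrb) summed to between 5470 and 6597 RPKM of RNA in all 11 lysates. Most of this sum was Vim (3834 to 4432 RPKM), and it does not show the spread of single markers, such as Col3a1 (315 to 707 RPKM) or Thy1 (94.5 to 118 RPKM). Of 5 markers of epithelial, blood and endothelial cells only Cdh1 was in the table, at 2.74 to 4.05 RPKM. The RNA-seq libraries of 3 lysates (Denr shRNA1 replicate 1, scramble shRNA replicate 3 and Gfp shRNA replicate 1) stood apart, with an SD of their log2 deviation from the gene medians of 0.26 to 0.38, compared with 0.16 to 0.21 in the other RNA-seq libraries. The scramble shRNA replicate 3 RPF-seq library stood apart as well (0.32, others 0.18 to 0.24). Results are therefore also given without these 3 lysates where this changed a call. Denr RNA lay between 34.4 and 44.0 RPKM with Denr shRNA1 and between 15.5 and 20.8 RPKM with Denr shRNA2, compared with 165 to 190 RPKM in controls (log2 change -2.75, lower in 6 of 6 knockdown lysates; exact two-sided permutation p = 0.00216, the smallest that 462 splits allow). In bulk RNA, fewer cells and less RNA per cell cannot be told apart.

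RNA levels of the NMD factors spanned a wide range in these fibroblasts. Smg5 was the most abundant, with 149 ± 17.9 RPKM of CDS reads (mean ± SD, n = 11 lysates), a level above that of 88.2% of genes. Upf3a followed with 67.3 ± 3.99 RPKM, and neither range overlapped the next. Smg1 (25.9 ± 4.62 RPKM) and Smg8 (25.7 ± 2.55 RPKM) were not separated, as Smg1 was the higher of the pair in 8 of 11 lysates. Upf1 had 20.5 ± 1.74 RPKM, below Smg8 in 11 of 11 lysates although the ranges overlapped, and Smg6 19.3 ± 2.05 RPKM, again overlapping and in this order in 8 of 11 lysates. Upf2 (15.0 ± 3.41 RPKM), Smg9 (9.0 ± 1.29 RPKM) and Upf3b (5.88 ± 1.59 RPKM) were lowest, with overlapping ranges. Smg6 exceeded Upf2 in 11, Upf2 exceeded Smg9 in 10 and Smg9 exceeded Upf3b in 11 of 11 lysates.

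The order changed when CDS footprints, the measure of ongoing protein synthesis, were considered. Upf3a (37.5 ± 2.73 RPKM) and Upf1 (35.4 ± 3.20 RPKM) now led with overlapping ranges, followed by Smg8 (23.0 ± 1.66 RPKM) and Smg5 (22.1 ± 1.48 RPKM), which also overlapped. Smg9 had 13.6 ± 1.17, Upf2 10.9 ± 0.69, Upf3b 8.45 ± 0.67, Smg6 7.85 ± 0.79 and Smg1 5.92 ± 0.34 RPKM of footprints. Of these, Smg9 with Upf2 and Upf3b with Smg6 overlapped. Smg5 thus had rank 1 for RNA and rank 4 for footprints, while Upf1 had rank 5 for RNA and rank 2 for footprints.

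**Figure D2:**
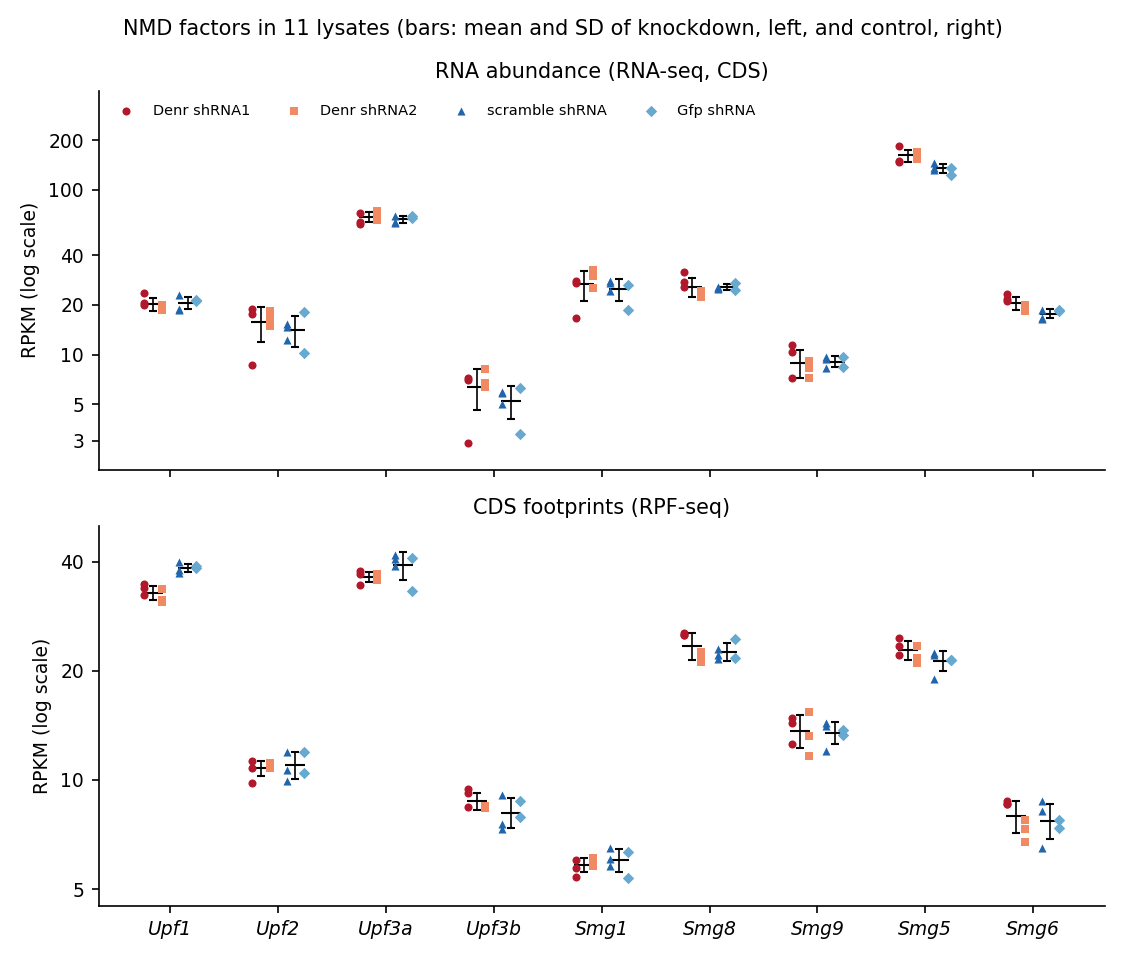
RNA abundance (top) and CDS footprints (bottom) of the 9 NMD factors in RPKM on log axes, with 1 point per lysate, coloured by shRNA, and bars for the mean and SD of the 6 knockdown (left) and 5 control (right) lysates. Footprints of Upf1 in knockdown lysates (31.0 to 34.7 RPKM) lie below all controls (37.2 to 39.9 RPKM), RNA of Smg5 lies above all controls, and low RNA points of Upf2, Upf3b and Smg1 come from Denr shRNA1 replicate 1 and Gfp shRNA replicate 1.

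Translation efficiency (TE), the ratio of footprint RPKM to RNA RPKM on the CDS, ranged from 0.150 to 1.73 among the members. Smg5 had a TE of 0.150 ± 0.018 (n = 11), lower than that of all but 1.44% of genes, in contrast to its high RNA level. Smg1 was next with 0.241 ± 0.059, above 4.02% of genes, and Smg6 had 0.413 ± 0.044. Upf3a (0.56 ± 0.056), Upf2 (0.774 ± 0.249) and Smg8 (0.900 ± 0.054) were below the median of all genes, 0.957. Smg9 (1.52 ± 0.13), Upf3b (1.56 ± 0.61) and Upf1 (1.73 ± 0.17) were above it, with ranges that overlapped each other but not that of Smg8. Of the mRNAs for the kinase SMG1 and its partners, which act as a complex, Smg9 had rank 3, Smg8 rank 4 and Smg1 rank 8 of the 9 members in this order of means. Upf3b, with rank 2, exceeded Smg9 in only 4 of 11 lysates, and its median was lower (1.34 and 1.51). RNA and footprint RPKM were normalised separately, so that a TE is a position relative to other genes and not a count of ribosomes per mRNA.

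**Figure D3:**
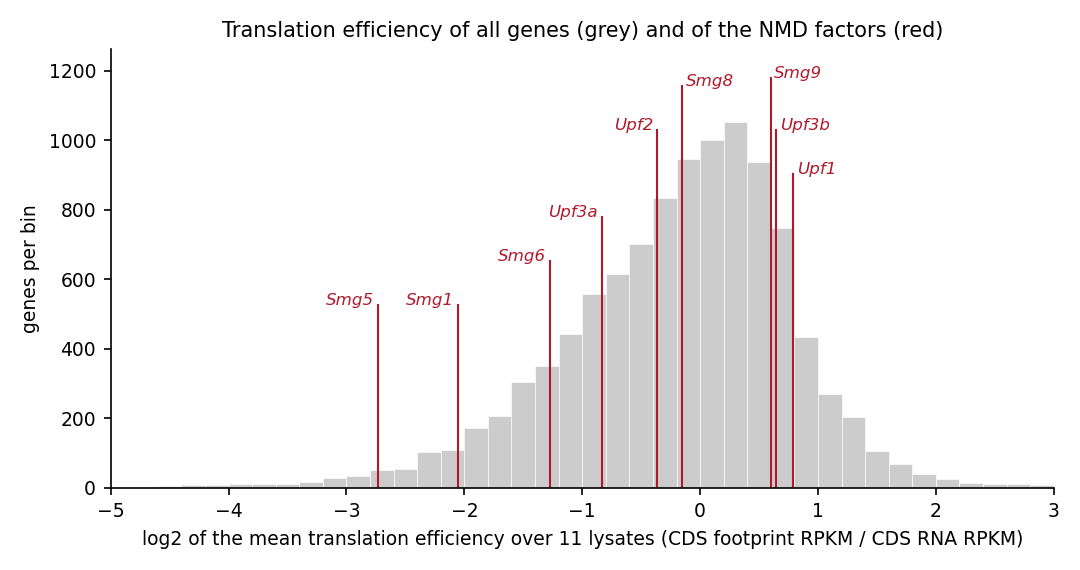
Histogram of translation efficiency over 10516 genes (grey; log2 of the mean ratio of CDS footprint RPKM to CDS RNA RPKM over 11 lysates, 0.2 log2 units per bin, 16 genes outside the axis), with the NMD factors as red lines whose heights carry no value. Smg5 and Smg1 lie in the lower tail, and Upf1, Upf3b and Smg9 to the right of the median of 0.957.

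Smg5 and Smg1, the members with the lowest TE, had a higher footprint density on the 5′ UTR than on the CDS. In control lysates, Smg5 carried 58.3 to 83.3 RPKM of footprints on the 5′ UTR and 19.0 to 22.4 RPKM on the CDS, and its 5′ UTR accounted for 15.1% ± 2.10 of its footprints (n = 5). In Smg1 the corresponding ranges were 9.66 to 18.1 RPKM and 5.38 to 6.48 RPKM. RNA on the 5′ UTR in control lysates was 46.8 to 78.6 RPKM for Smg5 and 5.90 to 9.94 RPKM for Smg1. The ratio of 5′ UTR to CDS footprints, termed relative 5′ UTR translation, was 3.27 for Smg5 and 2.43 for Smg1 in controls (geometric means). Only 220 and 370, respectively, of the 5175 genes with sufficient 5′ UTR coverage had a higher ratio (at least 20 footprints in at least 9 of 11 RPF-seq libraries). Upf1 (0.515) and Smg9 (0.498) were close to the median of those genes, 0.538. In Upf1 these footprints were counted on a 5′ UTR of 280 nt, at 52 to 161 reads per library, and in Smg1 on one of 424 nt. A low CDS footprint value both lowers TE and raises relative 5′ UTR translation, so that these measures are not independent.

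The other 5 members did not reach the coverage. Upf2 had 199 footprints on its 103-nt 5′ UTR over all 11 libraries, Upf3a 47, Smg6 39 and Upf3b 16. On the 21-nt 5′ UTR of Smg8 there were 0 footprints in all libraries, which allows at most 3 over the 11 libraries by counting error alone. Footprints were counted at their A-site, which lies inside the read. A 5′ UTR this short therefore offered few positions that could be counted, and the 0 is not a measured absence of ribosomes. Relative 5′ UTR translation of these 5 members was not compared between groups.

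Knockdown of Denr was first compared with control at the level of RNA, using limma on log2(RPKM + 0.1) over all genes with an FDR of 0.1. Of the 9 members, 1 was called, Smg5, and it was higher, while 2.68% of all 10516 genes were called higher and 0.865% lower (282 and 91 genes, and 191 and 107 with each library centred on its median). Smg5 RNA was 183, 149, 147, 170, 155 and 164 RPKM in the knockdown lysates (Denr shRNA1 replicates 1 to 3, then Denr shRNA2 replicates 1 to 3). In the controls it was 146, 135 and 133 RPKM with scramble shRNA and 136 and 123 RPKM with Gfp shRNA. All knockdown lysates were above all controls, a pattern that 2.63% of genes showed. The log2 change was 0.26 (SE 0.07, 95% interval 0.10 to 0.42; adjusted p = 0.097), which is close to the threshold. Smg5 remained higher in all 23 alternative analyses (log2 change 0.19 to 0.29) but passed the FDR of 0.1 in 8 of them, and without the 3 lysates that stood apart its adjusted p was 0.135. The call was also lost when Denr shRNA1 replicate 2, any Denr shRNA2 or scramble shRNA lysate, or Gfp shRNA replicate 2 was left out (adjusted p = 0.11 to 0.222).

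The endonuclease Smg6 had an estimate of similar size that did not pass the test. Its RNA ranged from 18.4 to 23.2 RPKM (median 20.5) in knockdown and from 16.4 to 18.7 RPKM (median 18.3) in control lysates, so that the groups overlapped slightly (log2 change 0.21, SE 0.08; adjusted p = 0.198). The central helicase Upf1 (log2 change -0.02, 95% interval -0.20 to 0.16), Upf3a (0.04, -0.11 to 0.18) and Smg8 (-0.0002, -0.19 to 0.19) had intervals on both sides of 0. The change of Smg9 was -0.04 (95% interval -0.30 to 0.23). Over the 9 members the median log2 change in RNA was 0.08, compared with 0.03 over all genes.

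For Upf2, Upf3b and Smg1 the RNA comparison was imprecise. Upf2 RNA was 8.61 RPKM in Denr shRNA1 replicate 1 and 10.2 RPKM in Gfp shRNA replicate 1, but 12.2 to 18.9 RPKM in the other 9 lysates. Upf3b RNA was 2.91 and 3.31 RPKM in the same lysates and 5.00 to 8.12 RPKM elsewhere. Smg1 showed 16.7 and 18.8 RPKM there and at least 24.3 RPKM elsewhere. Their footprints did not follow: the SD of log2 values over the 11 lysates was 0.45 for RNA and 0.11 for footprints of Upf3b, 0.37 and 0.09 for Upf2, and 0.28 and 0.08 for Smg1, with medians over all genes of 0.18 and 0.16. These 3 mRNAs had the lowest GC contents of the CDS among the members (42.8%, 43.5% and 45.7%, compared with 50.5% to 59.6% in the other 6). Across 10474 genes, the deviation of a library from the gene medians was related to the GC content of the CDS in Denr shRNA1 replicate 1 (Spearman's rho 0.55) and Gfp shRNA replicate 1 (0.37), but also in Denr shRNA2 replicate 3 (0.39), where these mRNAs were not low, and with the opposite sign in scramble shRNA replicate 3 (-0.50). The part of this in the low values was not tested. Log2 changes of RNA were 0.24 for Upf3b (95% interval -0.27 to 0.75), 0.14 for Upf2 (-0.27 to 0.56) and 0.08 for Smg1 (-0.25 to 0.41). After correction of every library for GC content and CDS length they were 0.30, 0.19 and 0.08, and none passed the test.

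At the level of CDS footprints, 1 member was called, Upf1, and it was lower, against 4.55% of all genes called lower and 5.47% called higher. The share of genes called in either direction was 10.0%. It was 8.48% between Gfp shRNA and scramble shRNA and 9.69% between the Denr shRNAs. Upf1 footprints were 34.7, 33.9 and 32.4 RPKM with Denr shRNA1, 33.5, 31.0 and 31.2 RPKM with Denr shRNA2, 39.9, 37.8 and 37.2 RPKM with scramble shRNA, and 38.9 and 38.4 RPKM with Gfp shRNA. The groups did not overlap, and the lowest control exceeded the highest knockdown lysate. In 1.97% of genes all knockdown lysates were below all controls. Group means were 32.8 ± 1.5 RPKM (n = 6) and 38.4 ± 1.01 RPKM (n = 5), and the log2 change was -0.23 (SE 0.05, 95% interval -0.34 to -0.12; adjusted p = 0.0247). The change was between -0.27 and -0.19 in 23 alternatives and passed the FDR of 0.1 in 22, the exception being Denr shRNA1 alone (-0.19; adjusted p = 0.129). Counts behind these values were 1068 to 2546 footprints per library.

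CDS footprints of the other 8 members were not called. Upf3a, the paralogue of Upf3b, had 34.5 to 37.7 RPKM in knockdown and 33.1 to 41.6 RPKM in control lysates (log2 change -0.10, 95% interval -0.24 to 0.03). Gfp shRNA replicate 1 was the lowest control, and without it the change was -0.16 with an adjusted p of 0.0979. Upf3b (log2 change 0.11, 95% interval -0.06 to 0.27) and Smg5 (0.09, -0.04 to 0.23) had positive estimates. Those of Upf2 (-0.03), Smg1 (-0.04), Smg9 (0.01), Smg6 (0.04) and Smg8 (0.05) were close to 0. The median over the 9 members was 0.01, equal to that over all genes at this precision.

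**Figure D4:**
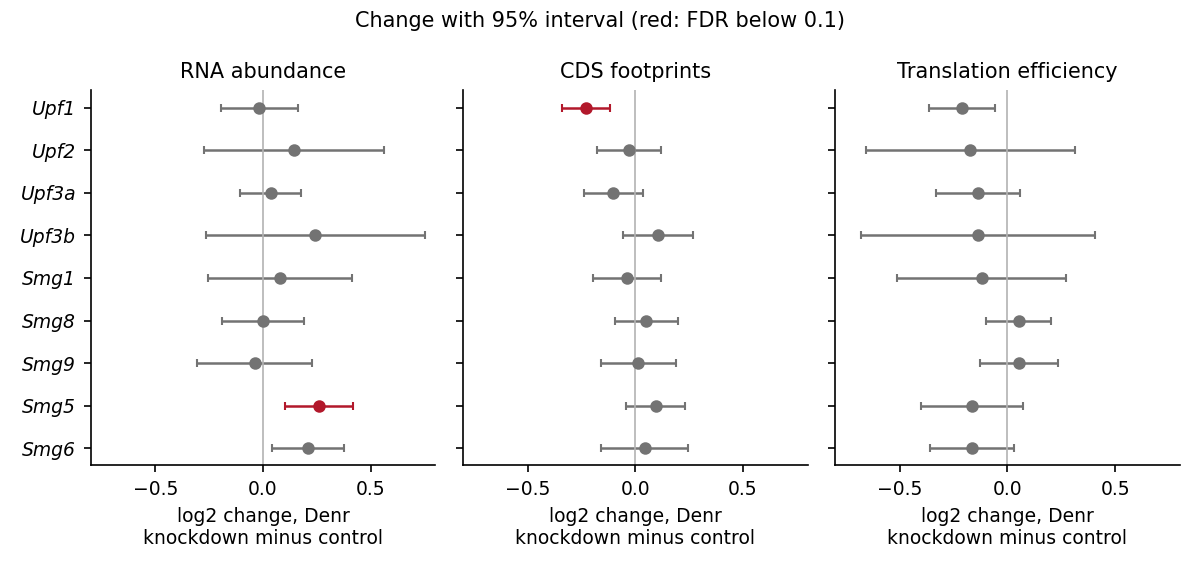
Log2 change (Denr knockdown minus control) with its 95% interval from limma for RNA abundance, CDS footprints and translation efficiency of the 9 NMD factors. Red marks the changes with an FDR below 0.1, RNA of Smg5 (0.26) and footprints of Upf1 (-0.23), and the intervals for RNA and TE of Upf2, Upf3b and Smg1 are wide.

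No member was called for TE by limma, where 50 genes (0.475%) were called, all lower, and 1 member, Upf1, had an unadjusted p below 0.05 (6.66% of genes). Upf1 had a TE of 1.46 to 1.78 in knockdown (median 1.63) and 1.74 to 2.00 in control lysates (median 1.84). Only Denr shRNA2 replicate 1, at 1.78, was above the lowest control (log2 change -0.21, SE 0.07, 95% interval -0.36 to -0.06; adjusted p = 0.457). Its estimate was negative in all 23 alternatives (-0.25 to -0.12), none of which passed the test. Smg5 TE was 0.121 to 0.166 in knockdown and 0.144 to 0.175 in controls (log2 change -0.17, 95% interval -0.40 to 0.07), and Smg6 TE changed by -0.17 (-0.36 to 0.03). For Upf2 (-0.17), Upf3a (-0.14), Upf3b (-0.14) and Smg1 (-0.12) the intervals also included 0. Smg8 and Smg9, the partners of the SMG1 kinase, had positive estimates of 0.05 each. TE was thus lower on average in 7 of 9 members, with a median log2 change of -0.14, while 54.7% of all genes had a negative change and their median was -0.01. This count includes Upf2, Upf3b and Smg1, whose RNA values were imprecise. The TE estimate reversed its sign in 3 of 23 alternatives for Upf3b, in 2 for Smg1 and in 1 for Smg9. The members share lysates and RNA libraries, and their changes are not independent of each other.

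Relative 5′ UTR translation was compared for Smg5, Smg1, Smg9 and Upf1. All 4 had higher estimates in knockdown lysates, and limma called 0 of them at the FDR of 0.1, whereas 18.1% of the 5175 covered genes were called higher. At an unadjusted p below 0.05 there were 3 members (Smg5, Smg1 and Smg9) and 33.3% of covered genes. With the replicate number added to the limma fit as a block, the same members were called at the FDR of 0.1. In that fit 2412 covered genes were called higher, compared with 937 without the block. The ratio for Smg5 was 4.21, 4.16, 3.63, 4.96, 4.41 and 4.65 in the knockdown lysates, in the order used above, and 3.76, 2.75, 3.54, 2.71 and 3.8 in the controls. A single knockdown lysate, Denr shRNA1 replicate 3, fell within the control range (log2 change 0.40, SE 0.16; adjusted p = 0.108). Changes were 0.41 for Smg1 (SE 0.19; adjusted p = 0.146), 0.50 for Smg9 (SE 0.22; adjusted p = 0.129) and 0.27 for Upf1 (SE 0.21; adjusted p = 0.346). The median over all covered genes was itself 0.33, and 6.45% of them had a change below 0. With each library centred on its median the changes were 0.03 for Smg5, 0.05 for Smg1, 0.13 for Smg9 and -0.10 for Upf1. The same ratio computed from RNA-seq showed no called member, with changes of -0.24 for Smg9 to 0.13 for Smg5, and limma called 0 of 5175 genes at the FDR of 0.1 (221, or 4.27%, at an unadjusted p below 0.05, none of them a member).

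Taken on their own, footprints on the Smg5 5′ UTR were higher after knockdown. They amounted to 93.3, 103, 85.1, 108, 103 and 97.7 RPKM in the knockdown lysates and to 83.3, 61.6, 67.3, 58.3 and 81.5 RPKM in the controls, so that the groups did not overlap, as in 5.93% of covered genes with all knockdown lysates above. The log2 change was 0.49 (SE 0.14; adjusted p = 0.0441), where 23.0% of covered genes were called higher and their median change was 0.30. It was not called with either Denr shRNA alone (0.42 with Denr shRNA1, adjusted p = 0.195; 0.56 with Denr shRNA2, adjusted p = 0.226), after median centring (0.12) or without the 3 lysates that stood apart (0.40; adjusted p = 0.210), nor without Denr shRNA1 replicate 2, Denr shRNA2 replicate 2 or Gfp shRNA replicate 1 (adjusted p = 0.101 each). RNA on the Smg5 5′ UTR was 78.2 to 115 RPKM in knockdown and 46.8 to 78.6 RPKM in control lysates, and the ratio of 5′ UTR footprints to 5′ UTR RNA had an estimate of 0.10 (95% interval -0.34 to 0.54). The Smg5 values rested on 116 to 244 footprints per library. For Smg9, footprints on the 5′ UTR were 6.32 to 12 RPKM in knockdown and 4.77 to 10.4 RPKM in controls, from 15 to 46 reads per library (log2 change 0.51, SE 0.23; adjusted p = 0.126). Smg1 had 17.1 to 23.0 RPKM and 9.66 to 18.1 RPKM (0.38, SE 0.17; adjusted p = 0.138). The estimate for Upf1 was 0.04 (SE 0.21). Divided by 5′ UTR RNA, the limma change was 0.80 for Smg9 (95% interval 0.26 to 1.33; adjusted p = 0.152). It was 0.25 for Smg1 (-0.26 to 0.76) and -0.03 for Upf1 (-0.56 to 0.49), where the median over covered genes was 0.25.

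**Figure D5:**
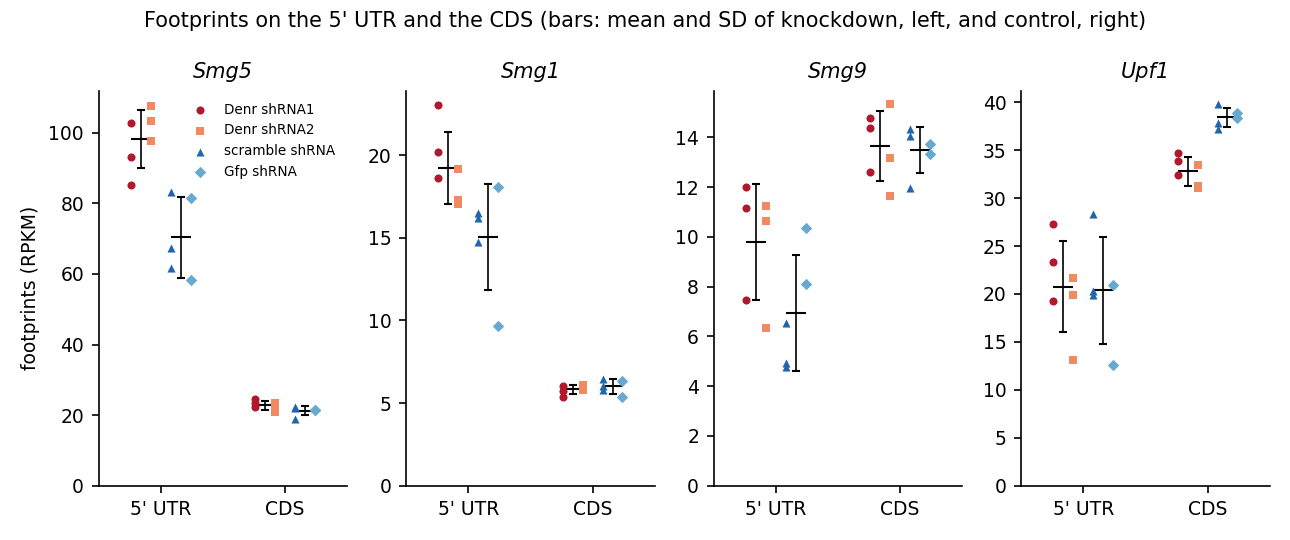
Footprints on the 5′ UTR and on the CDS in RPKM for the 4 members with sufficient 5′ UTR coverage, with separate axes starting at 0, points for lysates, coloured by shRNA, and bars for the mean and SD of the 6 knockdown (left) and 5 control (right) lysates. In Smg5 and Smg1 the 5′ UTR lies above the CDS in all lysates, in Smg9 and Upf1 below it.

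Both Denr shRNAs gave estimates of the same sign for the called changes. The estimate for Smg5 RNA was 0.24 with Denr shRNA1 (adjusted p = 0.332) and 0.28 with Denr shRNA2 (adjusted p = 0.0896), and that for Upf1 footprints -0.19 and -0.27. These pairs of values share their controls. Compared directly, Denr shRNA2 and Denr shRNA1 differed in footprints of 1 member, Smg8, where 9.69% of all genes were called. Smg8 footprints were 25.0, 25.4 and 25.0 RPKM with Denr shRNA1 and 21.1, 22.5 and 21.4 RPKM with Denr shRNA2, without overlap (log2 difference, shRNA2 minus shRNA1, -0.22, SE 0.07; adjusted p = 0.0911). Controls ranged from 21.5 to 24.5 RPKM. Smg8 RNA was likewise 25.7 to 31.8 RPKM with Denr shRNA1 and 22.5 to 24.2 RPKM with Denr shRNA2 (-0.28, SE 0.09; adjusted p = 0.217). The difference in Smg8 footprints passed the FDR of 0.1 in 5 of 13 alternatives and was lost when any of the 6 knockdown lysates, or scramble shRNA replicate 1 or 2, was left out (adjusted p = 0.106 to 0.229). No member was called between the Denr shRNAs in RNA (2.06% of genes) or in TE, where limma called 0 genes (3.73% at an unadjusted p below 0.05). None was called between Gfp shRNA and scramble shRNA in RNA (0.704% of genes), footprints (8.48%) or TE, where 0 genes were called and 2.22% had an unadjusted p below 0.05.

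The wider pathway was described with 5 lists of machinery genes and a list of known substrate transcripts. None of the 6 exon junction complex genes, the 7 measured decapping and 5′-to-3′ decay genes or the 10 CCR4-NOT genes, which encode the main deadenylase, passed the test in RNA (background 3.55% in either direction), footprints (10.0%) or TE (0.475%). In footprints, the decapping genes Patl1, Edc4 and Dcp2 passed in 6, 5 and 1 of 23 alternatives, and the CCR4-NOT genes Cnot1 and Cnot10 in 3 and 2. Eif4a3, the helicase of the exon junction complex, had a footprint change of 0.05, and Xrn1, the 5′-to-3′ exonuclease, one of -0.11. The 7 other NMD-linked factors analysed here were not called either. Among them, RNA changes were 0.29 for the helicase Mov10 (SE 0.12; adjusted p = 0.232) and 0.28 for the helicase Dhx34 (SE 0.09; adjusted p = 0.153). Changes of 0.10 for Pnrc2, 0.07 for Nbas, -0.08 for Ruvbl1, 0.08 for Ruvbl2 and -0.15 for Ice1 completed the list. Footprints of these 7 genes changed by between -0.32 (Ice1) and 0.09 (Dhx34). In RNA, Mov10 passed in 2 and Dhx34 in 1 of 23 alternatives. In footprints, Ice1 passed in 1, with Denr shRNA1 alone (-0.68; adjusted p = 0.00412).

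Of the 5 measured termination and cap-binding genes, Pabpc1 alone was called, and only in footprints. Pabpc1 encodes the cytoplasmic poly(A)-binding protein, which promotes normal termination and counteracts NMD. Its footprints were 74.8 ± 6.01 RPKM in knockdown (n = 6) and 100 ± 7.61 RPKM in control lysates (n = 5), a log2 change of -0.42 (SE 0.07; adjusted p = 0.00585). The estimates were 0.22 for its RNA (SE 0.17; adjusted p = 0.564) and -0.64 for its TE (SE 0.21; adjusted p = 0.437). The release factors Etf1 and Gspt1 had footprint changes of -0.13 and -0.14, neither of which was called. In 23 alternatives, Etf1 footprints passed in 1, Gspt1 footprints in 3 and Gspt1 RNA in 2.

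Among 10 transcripts known as NMD substrates, 3 were higher in RNA (background 2.68%) and none was called lower (0.865%), although Upp1 passed in the lower direction in 8 of 23 alternatives. The list was chosen with earlier results of these data known, so that the contrast with the background is a description and not a test. In footprints 1 of these transcripts was called higher (background 5.47%) and 1 lower (4.55%). Gadd45a, a growth arrest gene, rose from 31.5 ± 7.54 to 56.6 ± 7.78 RPKM of RNA (log2 change 0.86, SE 0.14; adjusted p = 0.00791). Its footprints rose from 39.1 ± 9.15 to 67.9 ± 8.06 RPKM (0.82, SE 0.13; adjusted p = 0.00585). Atf4, the transcription factor of the integrated stress response, was higher in RNA by 0.38 (SE 0.08; adjusted p = 0.0266), and Ddit3, its target encoding CHOP, by 0.52 (SE 0.14; adjusted p = 0.0854). Upp1, uridine phosphorylase, fell in footprints by 0.58 on the log2 scale (SE 0.12; adjusted p = 0.0177), and this call was lost with Denr shRNA2 alone (adjusted p = 0.103). Its RNA change of -0.47 had an adjusted p of 0.102, just outside the FDR, and was called without the 3 lysates that stood apart (-0.61; adjusted p = 0.0279). The other settings in which it was called were voom on the recovered reads, the correction for GC content and length, the replicate block, controls restricted to scramble shRNA, and the omission of Denr shRNA1 replicate 1, scramble shRNA replicate 3 or Gfp shRNA replicate 2 (adjusted p = 0.0216 to 0.0823). Atf4, Ddit3 and Gadd45a are also induced by cellular stress, and stress was not measured. The estimate for Gadd45b RNA was 0.25 (adjusted p = 0.202), and Nat9 (0.16), Map3k14 (0.16), Tbl2 (0.03), Atf3 (-0.03) and Arc (-0.01) were not called. Arc and Atf3 had as few as 3 and 10 RNA reads in a library, and their estimates were imprecise (SE 0.24 and 0.19). TE changes of all 10 lay between -0.33 (Atf3) and 0.03 (Tbl2), and none was called. The RNA calls of Gadd45a, Atf4 and Ddit3 were also made without the 3 lysates that stood apart. That of Gadd45a was made in all 23 alternatives, and that of Atf4 was lost with Denr shRNA1 alone (0.39; adjusted p = 0.125). The call of Ddit3 was lost in 8 alternatives, namely after median centring (0.50; adjusted p = 0.111), with Denr shRNA2 alone (0.29; adjusted p = 0.262), and without Denr shRNA1 replicate 2 or 3, Denr shRNA2 replicate 1 or any scramble shRNA lysate (adjusted p = 0.123 to 0.225).

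The TE profile of Upf1 across the 11 lysates was compared with those of 7102 genes with a mean of at least 10 RPKM on the CDS in both assays. The most similar were Ezr (Pearson's r = 0.93), Ces2g (0.90) and Zswim1 (0.90). The 11 points include both groups and share their libraries between genes, so that these names are a description. The TE changes of the 3 genes were -0.21, -0.12 and -0.33, and none was called.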

How the data were processed

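Ribosome profiling and parallel RNA-seq of 11 NIH3T3 lysates (22 libraries) were analysed. The deposited values are RPKM of CDS and 5′ UTR per gene and library. The authors trimmed and size-selected reads, mapped them sequentially, rRNA and tRNA first and then cDNA and genome (Bowtie2 2.2.1 and TopHat2 2.0.11 per the labels; GRCm38), and counted them on expressed isoforms (Cufflinks 2.2.1), footprints by their A-site and RNA reads by their 5′ end. Ambiguous reads were assigned to CDS before 5′ UTR, which lowers 5′ UTR values. Genes with few reads were removed, and RPF-seq and RNA-seq were normalised separately by the upper quartile. Whole reads were recovered from the RPKM steps for depth and coverage.

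Knockdown (n = 6) and control (n = 5) lysates were compared on log2(RPKM + 0.1) with limma 3.58.1 in R 4.3.3 (lmFit, eBayes with trend), Benjamini-Hochberg adjustment over all genes and an FDR of 0.1. A fold change on this scale understates low genes. TE was the difference of log2 CDS values of RPF-seq and RNA-seq, and relative 5′ UTR translation that of 5′ UTR and CDS footprints. A pooled fit of the 4 shRNAs gave the contrasts between shRNAs. The procedure was tested on simulated data. Symbols were assigned to 10505 of 10516 identifiers. Sequences are from GENCODE vM21 (GRCm38). All 9 members are named, as are Denr, every measured substrate and other NMD-linked factor (1 further gene of that list is not reported here), list genes past the FDR, and the 3 genes most like Upf1 in TE; Eif4a3, Xrn1, Patl1, Edc4, Etf1 and Gspt1 were added after their values were seen. The members and lists were chosen with earlier results of these data known. Alternatives comprised pseudocount, expression filter, centring, trend, single shRNAs, single controls, a replicate block, each lysate left out, voom on recovered reads and a TE interaction model. Omission of the 3 deviating lysates, the correction for GC content and length, and the alternatives for undivided 5′ UTR footprints, pathway lists and Denr were chosen after seeing the data. Intervals of counts cover counting error only.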

Additional observations from a re-analysis of the deposited data

Results flagged for a closer look

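Within groups of 5 or 6 lysates, 62 sets of log2 values of the members were screened for a lysate separated from the rest by Dixon's criterion, of which chance alone gives about 5% (3.1 sets), and 7 were found. Of these, 5 came from Denr shRNA1 replicate 1, whose RNA-seq library stood apart over all genes. Its log2 RNA was 3.12 for Upf2, where the other 5 knockdown lysates had 3.90 to 4.25, and 1.59 for Upf3b, where the others had 2.69 to 3.04. Its log2 TE was accordingly high for Upf2 (0.39, others -0.83 to -0.46) and for Upf3b (1.62, others 0.04 to 0.43), and low for Smg8 (-0.35, others -0.13 to -0.01). Upf2 footprints in Denr shRNA1 replicate 2 were low at a log2 value of 3.31 (others 3.44 to 3.51), and Smg5 footprints in scramble shRNA replicate 3 were low at 4.26 (other controls 4.43 to 4.49).

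Smg8 footprints differed between the Denr shRNAs, with a log2 difference of -0.22 (shRNA2 minus shRNA1; limma adjusted p = 0.0911).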

How the results depend on the processing

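Log2 changes are knockdown minus control. The RNA call of 1 NMD factor fell to 0 with a mean CDS RPKM of at least 1, median centring, no trend, Denr shRNA1 alone, scramble shRNA alone as control, 3 lysates left out or the correction for GC content and length (0 to 1 with single lysates left out). In each of these Smg5 was higher but did not pass the FDR. CDS footprint calls were 0 with Denr shRNA1 alone and 2 with scramble shRNA alone (Upf1 and Upf3a), and 1 to 2 with single lysates left out. Relative 5′ UTR translation had 1 call with a pseudocount of 1, with scramble shRNA alone or without division by the CDS, and 0 to 3 with single lysates left out; centring on the median lowered the calls over all covered genes from 937 higher to 3. For Denr shRNA2 against Denr shRNA1, footprint calls were 0 to 1 with single lysates left out. Pathway list calls in RNA, 3 in all, were 5 with scramble shRNA alone and 5 after GC correction. Those in footprints, also 3, were 8 with Denr shRNA1 alone, 9 with scramble shRNA alone and 5 by voom. With single lysates left out they were 3 to 9, and TE calls 0 to 1. Calls over all genes, higher and lower, moved as well. RNA calls were 282 higher and 91 lower in the main fit, 708 and 232 with scramble shRNA alone, and 380 and 381 after GC correction. Footprint calls were 575 and 478 in the main fit, 330 and 487 with Denr shRNA1 alone, and 1470 and 1181 with scramble shRNA alone. They were 591 and 561 by voom, and 994 and 952 without Gfp shRNA replicate 2. The causes were not tested.

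The replicate numbers were not taken as pairs, since not every pair of same-numbered lysates deviated together. The correlations of their deviations averaged 0.33 in RNA, 0.18 in footprints, 0.23 in TE and 0.21 in relative 5′ UTR translation, the lowest were between -0.13 and -0.003, and 10, 13, 10 and 11 of 15 pairs were over 0.1. Of 11 lysates, 5, 9, 9 and 10 correlated best with their own number, a hint from the data and not from the design. The replicate block gave 3 calls for relative 5′ UTR translation (Smg5, Smg1 and Smg9). Over all covered genes it gave 2412 calls higher, compared with 937 without the block. It also gave 6 and 8 pathway calls in RNA and footprints. Over all genes the block gave 750 calls higher and 253 lower in RNA, and 1067 and 873 in footprints. With it, changes reversed to 0.0047 for Smg8 RNA and 0.0064 for Smg9 RNA. Member calls in RNA (1), footprints (1) and TE (0) had the same number.

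Small changes, none of them called, reversed in other settings. A pseudocount of 1 gave 8.2e-05 for Smg8 RNA. Denr shRNA1 alone gave RNA changes of 0.060 for Upf1, -0.0056 for Upf3a, -0.083 for Smg1, 0.14 for Smg8 and 0.068 for Smg9, and TE changes of 0.11 for Upf3b, 0.013 for Smg1 and -0.023 for Smg9. Denr shRNA2 alone gave footprint changes of -0.056 for Smg8, -0.017 for Smg9 and -0.079 for Smg6, and -0.15 for Upf1 5′ UTR footprints. Scramble shRNA alone gave RNA changes of 0.017 for Upf1, -0.017 for Smg1 and 0.016 for Smg8, a TE change of 0.0042 for Upf3b, and changes of the RNA-seq 5′ UTR-to-CDS ratio of -0.014 for Upf1 and -0.00839 for Smg1. Without the 3 lysates, footprint changes were 0.040 for Upf2, 0.014 for Smg1 and -0.056 for Smg9, and RNA-seq ratios changed by -0.050 for Upf1 and -0.024 for Smg1. The GC correction gave -0.042 for Upf3a RNA, footprint changes of 0.058 for Upf2, 0.088 for Smg1 and -0.046 for Smg9, and 0.012 for Smg1 TE. Upf1 relative 5′ UTR translation was -0.10 after median centring and -0.035 over 5′ UTR RNA, and its 5′ UTR footprints -0.33 after median centring. With single lysates left out, ranges that crossed 0 were -0.064 to 0.021 for Upf1 RNA, -0.018 to 0.21 for Smg1 RNA, -0.063 to 0.037 for Smg8 RNA, -0.11 to 0.021 for Smg9 RNA, -0.028 to 0.059 for Smg9 footprints, -0.016 to 0.089 for Smg6 footprints, -0.063 to 0.0030 for Upf2 footprints, -0.36 to 0.0098 for Upf3b TE, -0.059 to 0.12 and -0.016 to 0.18 for the RNA-seq ratios of Smg1 and Upf1, and -0.13 to 0.17 for Upf1 5′ UTR footprints. Denr was lower in all 23 alternatives for RNA and for footprints.

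With 5 and 6 lysates and 15 to 46 footprints per library on the Smg9 5′ UTR, changes of the size estimated there were not resolved, and 5 members could not be compared on the 5′ UTR.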
